A study of Mus musculus with 2 samples.

Results

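Of the IL-7 receptor and Zap70 signalling genes described here, *Il7r*, the receptor chain that binds IL-7, and *Zap70*, a tyrosine kinase of T cells, gave over 3 times the signal on the *Flcn* siRNA array that they gave on the scramble siRNA array. The receptor's partners *Jak1*, *Jak3*, *Stat5a* and *Stat5b*, the Zap70-related kinase *Syk* and the adaptor *Lat2* differed by less than 1.5-fold at their brightest probe sets, and the adaptor *Lat* was weak and lower, by at least 1.45-fold. The higher *Il7r* signal was seen at both of its probe sets, whereas that of *Zap70* was seen at 1 of its 3 probe sets, the other two being weak on both arrays. These 10 genes, out of 18193 named on the arrays, were chosen by the *Flcn* siRNA to scramble siRNA ratios of these same arrays for *Il7r* and *Zap70*, and by function for their partners. Their ratios are therefore given as a description. A probe set is a group of short probes read as 1 value, and every probe set that the platform annotation gives to 1 of these genes alone was used, which makes 21 probe sets for 9 genes. No probe set is listed for *Il2rg*, the common gamma chain that pairs with *Il7r*, and it was not analysed here.

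The cells of both groups were of the RAW264.7 line, mouse macrophages able to form osteoclasts. In 1 group the siRNA was a scrambled control, and in the other group it targeted *Flcn*, the folliculin tumour suppressor gene. The medium was replaced 24 hours after transfection by MEM alpha with 10% serum, and RNA was taken 48 hours later. No other agent is named for these samples. Each condition was read on 1 Affymetrix Mouse Genome 430 2.0 array. Without replicates the differences could not be tested or checked, and their precision is limited by having 1 array a side. A difference between the cultures and an effect of either siRNA sequence on other targets cannot be told apart from the knockdown. The values are linear signal intensities, and their medians over probe sets were 12.8 with scramble siRNA and 13.6 with *Flcn* siRNA. Signals under the median were raised to it before a ratio was taken, and a gene or probe set counts as measured when the geometric mean of its signals was at least 13.2. *Flcn* itself gave 209 with scramble siRNA and 145 with *Flcn* siRNA at its probe set with the larger difference, and 241 and 206 at another, so that neither reached 1.5-fold. *Gpnmb*, a known target of the transcription factor Tfe3, gave 294 and 2500.

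IL-7 binds a receptor made of the Il7r chain and the common gamma chain. Jak1 sits on the first and Jak3 on the second, and the active kinases phosphorylate Stat5a and Stat5b, which then enter the nucleus. The receptor is best known from developing and resting lymphocytes. Zap70 and Syk are the 2 kinases of a family that docks on phosphorylated ITAM motifs of receptor chains. Zap70 does this below the T cell receptor and phosphorylates the adaptor Lat, while Syk serves B cells, mast cells, macrophages and osteoclasts, where Lat2 is the related adaptor.

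The promoters of *Il7r* and *Zap70* are shown because these are the genes that were higher. RefSeq windows on GRCm38.p6 matched 9 of the 10 genes with 14 start sites, and none matched *Lat2*. Each window holds 250 bases before and 50 bases after a start, and the 250 bases before it are printed 5′ to 3′. The 250 bases printed for *Il7r* are chr15:9529877-9530126 on the minus strand. Those printed for *Zap70* are from the outermost of its 3 windows, chr1:36761548-36761797 on the plus strand. Capitals mark TTCNNNGAA, the core motif of STAT factors. It occurred in 1 of the 14 windows, that of *Il7r*, starting 142 bases before the start, and in 8.3% of 32851 windows of all genes.
Il7r: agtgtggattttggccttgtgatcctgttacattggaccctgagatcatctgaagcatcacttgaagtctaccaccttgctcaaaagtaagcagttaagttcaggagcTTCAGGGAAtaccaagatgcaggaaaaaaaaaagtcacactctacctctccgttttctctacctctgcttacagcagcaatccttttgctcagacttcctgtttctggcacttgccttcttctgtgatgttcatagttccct
Zap70: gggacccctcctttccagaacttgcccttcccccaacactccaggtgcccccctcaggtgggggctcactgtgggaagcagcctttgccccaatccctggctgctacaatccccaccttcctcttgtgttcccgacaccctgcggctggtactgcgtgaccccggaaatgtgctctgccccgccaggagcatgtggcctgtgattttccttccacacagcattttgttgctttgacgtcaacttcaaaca

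The E-box CACGTG, a motif bound by Tfe3 and its relatives, was also searched. Other motifs of these factors, such as the M-box, were not searched, so a window without CACGTG may still hold one. Both searched motifs read the same on either strand, and they do not overlap in these windows. CACGTG was found in 2 of the 14 windows and in 7.15% of all windows. The matches belong to the innermost of the *Zap70* starts, where the first 2 bases of the motif precede the start, and to *Lat*, where the motif begins 166 bases before it. These sites are printed with capitals on the motif, as chr1:36778970-36778999 on the plus strand for *Zap70* and chr7:126369717-126369746 on the minus strand for *Lat*. The *Il7r* window does not contain these 6 letters. Which *Zap70* start is used in these cells was not measured.
Zap70: cctagtgtatgcCACGTGagggtgggtaca
Lat: gggcctggttggCACGTGtctcctttccta

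*Il7r* had a signal of 32.1 with scramble siRNA and 116 with *Flcn* siRNA at its brighter probe set, 1448575_at, a log2 ratio of 1.85 or 3.61-fold. At the other, 1448576_at, the signals were 15.4 and 58.8, a log2 ratio of 1.93 or 3.82-fold. Both probe sets were thus clearly brighter with *Flcn* siRNA and nearly the same in ratio. The SD between their log2 ratios was 0.056, and the typical (median) SD between probe sets was 0.19 among the 5034 genes that had 2 or more measured. The scramble siRNA signal of the dimmer probe set lay close to the array median of 12.8. Of 9010 genes that had 2 or more probe sets, 67 were higher by 1.5-fold or more at every probe set, 0.744%, and *Il7r* is 1 of them. The same 67 made up 19.8% of the 339 such genes that were called higher. By log2 ratio *Il7r* ranked 3rd and *Zap70* 8th of 10285 measured genes. The genes were chosen by these same ratios, so neither the ranks nor the likeness of the *Il7r* probe sets is support for the difference. In RNA of a whole culture, more cells with the transcript and more transcript per cell cannot be told apart.

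**Figure D1:**
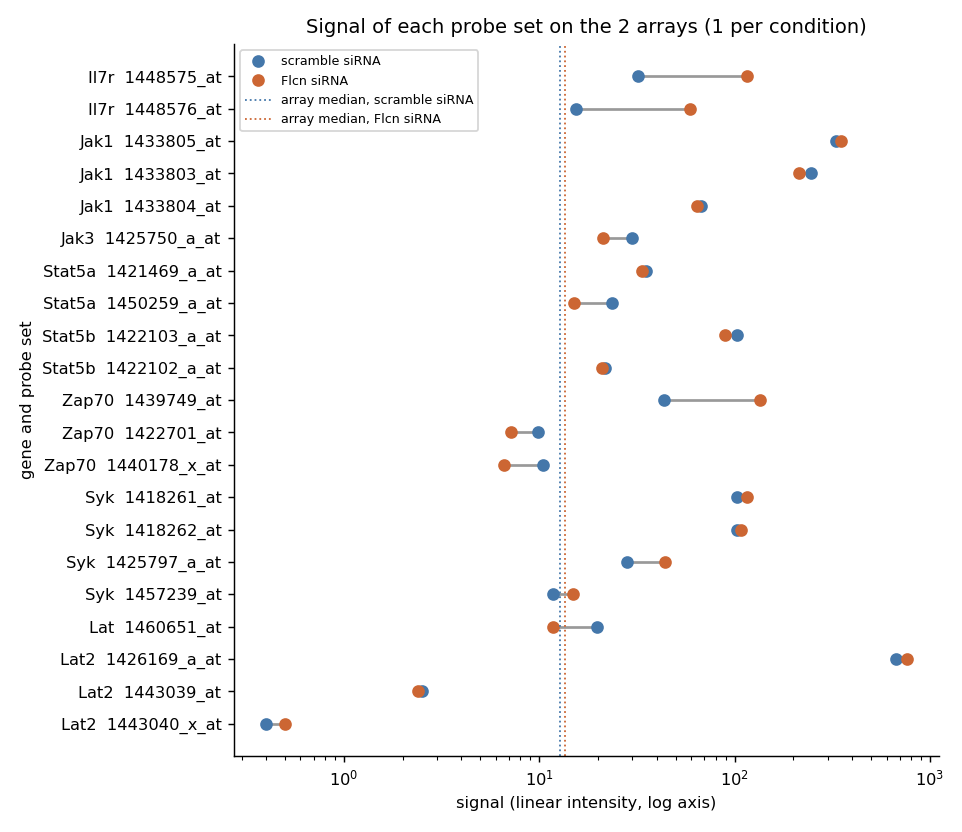
Signal of every probe set of the 9 genes on the scramble siRNA array (blue) and the *Flcn* siRNA array (orange), on a log axis, with a line joining the 2 values and dotted lines at the array medians of 12.8 and 13.6. Each point is 1 array; the longest lines to the right of the medians are those of *Il7r* (32.1 to 116 and 15.4 to 58.8) and of 1 *Zap70* probe set (43.7 to 134.8), while the other *Zap70* probe sets lie left of the medians.

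Neither kinase of the receptor passed 1.5-fold. *Jak1*, which is bound to the Il7r chain, had signals of 331 with scramble siRNA and 351 with *Flcn* siRNA at the brightest of its 3 probe sets. The others gave 246 and 213, and 67.1 and 64.5. Its log2 ratios were 0.08, -0.21 and -0.06, so the probe sets lay on both sides of 0, and with each array divided by its median the first became -0.0036. *Jak3*, the partner of the common gamma chain, was dim, with 29.8 and 21.1 at the 1 probe set that names it alone, a log2 ratio of -0.50. A further 2 probe sets name both *Jak3* and *Insl3* and were not used. Of these, 1 had signals of 33.3 with scramble siRNA and 40.0 with *Flcn* siRNA, opposite in direction to the probe set used. The other had 4.4 and 0.9, under the median on both arrays. Which gene gave these signals was not tested, so the lower *Jak3* signal rests on 1 probe set.

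Stat5a and Stat5b, the factors that these kinases activate, are close relatives. *Stat5a* gave 35.3 with scramble siRNA and 33.7 with *Flcn* siRNA at 1 probe set, and 23.5 and 15 at the other. Their log2 ratios were -0.07 and -0.65, the second of which is 1.57-fold lower, so the probe sets disagree on whether *Stat5a* passed 1.5-fold. *Stat5b* had 103 and 89.7 at the brighter probe set and 21.6 and 20.9 at the other, log2 ratios of -0.20 and -0.05. All 4 probe sets of the pair lay below 0.

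*Zap70* had a signal of 43.7 with scramble siRNA and 134.8 with *Flcn* siRNA at probe set 1439749_at, a log2 ratio of 1.63 or 3.08-fold. At 1422701_at, which the annotation ties to the *Zap70* mRNA record of RefSeq, the signals were 9.8 and 7.2, and at 1440178_x_at they were 10.5 and 6.6. Both of these lay under the median on both arrays, so they give no ratio, and neither was higher with *Flcn* siRNA. The annotation names no accession for 1439749_at, and where its probes lie in the gene was not examined. The same holds for both *Il7r* probe sets and for the brighter *Syk* probe sets. The mean log2 ratio over the 3 probe sets, weak signals raised to the median, was 0.60. Of 339 genes higher by 1.5-fold or more and with at least 2 probe sets, 176 (51.9%) had a probe set under the median on both arrays.

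*Syk*, the family member of myeloid cells, lay above 0 at all 4 of its probe sets. The signals were 102.8 with scramble siRNA and 115.7 with *Flcn* siRNA at the brightest, 103.4 and 108.3 at the next, 28.1 and 44.2 at 1425797_a_at, and 11.7 and 14.8 at the weakest, which did not pass the filter. The log2 ratios of the measured probe sets were 0.17, 0.07 and 0.65, the last of which is 1.57-fold. The brighter probe sets thus differed little between the arrays, and *Syk* passed 1.5-fold only at a dimmer probe set.

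The adaptors differed in how well they could be read. *Lat*, the main Zap70 substrate at the membrane, had 19.7 with scramble siRNA and 11.7 with *Flcn* siRNA, where it was under the median, so that it was at least 1.45-fold lower. Whether it passed 1.5-fold depends on the treatment of that weak signal, since its log2 ratio was -0.53 with the floor and -0.75 without it. *Lat2*, the adaptor of B cells and myeloid cells, gave 671 and 758 at its bright probe set, a log2 ratio of 0.18. Its other probe sets, with signals from 0.4 to 2.5, were under the median on both arrays.

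**Figure D2:**
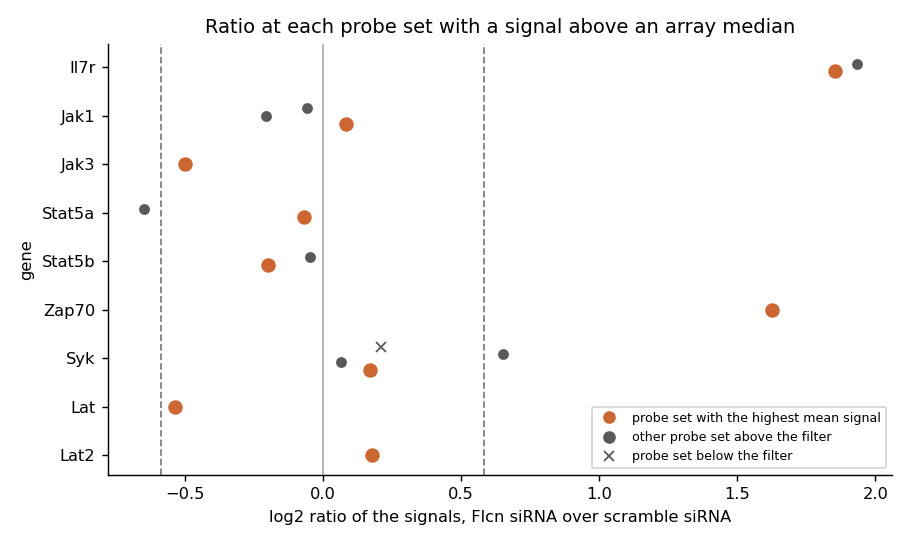
Log2 of the *Flcn* siRNA signal over the scramble siRNA signal at each probe set with at least 1 signal above an array median; dashed lines mark 1.5-fold. Orange points are the probe sets used for a gene, grey points are other measured probe sets and the cross is a probe set below the filter; the points of *Il7r* and the single one of *Zap70* lie at 1.63 to 1.93, and the rest between -0.65 and 0.65.

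Counted by gene, with the brightest probe set standing for it, 2 of the 9 measured genes, *Il7r* and *Zap70*, were called higher by 1.5-fold or more and 0 were called lower, with *Lat* at its bound. Of all 10285 measured genes 5.85% were higher and 5.52% lower by that size. The ratios of these arrays chose the genes, so nothing is read from their share. Without *Il7r* and *Zap70*, 3 of the 7 lay above 0 and 4 below, with a median log2 ratio of -0.067. Over all measured genes the median was 0.013 and 51.7% lay above 0. Of the 16 measured probe sets, with *Il7r* and *Zap70* included again, 4 were higher by 1.5-fold and 1, of *Stat5a*, was lower. The higher ones were 2 of *Il7r*, 1 of *Zap70* and 1 of *Syk*. Of all 18983 measured probe sets 6.54% were higher and 5.91% lower. Nothing is read from this either, since *Il7r* and *Zap70* were chosen by these ratios. With each array divided by its median *Jak3* and *Lat* passed 1.5-fold on the lower side, and *Lat* did so with quantile normalization, without a floor and with a lower floor.

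**Figure D3:**
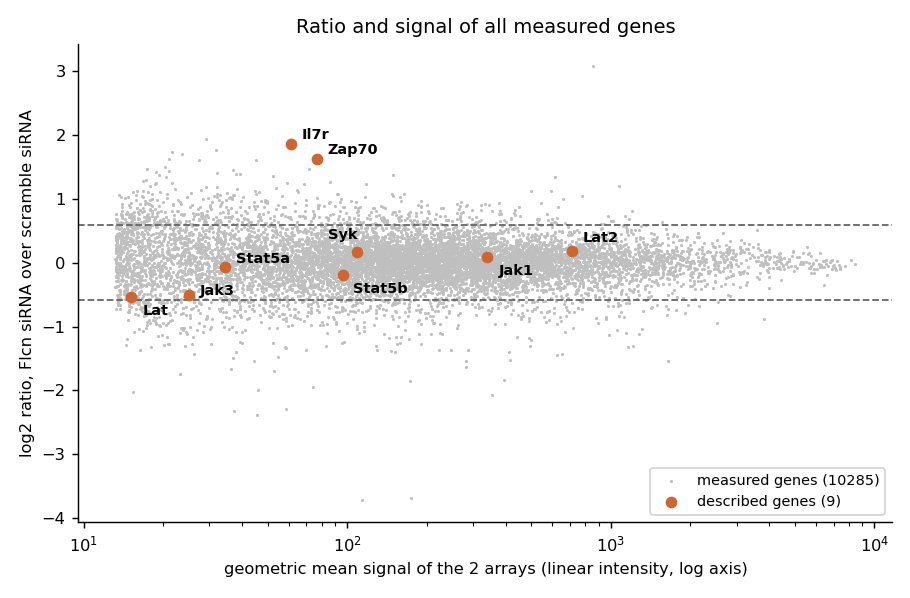
Log2 ratio (vertical) against geometric mean signal (horizontal, log axis) of the 10285 measured genes, grey, with the 9 described genes in orange; dashed lines mark 1.5-fold. A point stands for 1 gene, with 1 array a condition; *Il7r* and *Zap70* stand at 1.85 and 1.63 above the grey cloud, and the other described genes lie between the dashed lines, *Lat* at its bound of -0.53.

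Other genes of both pathways were counted in 11 lists, which hold 128 genes besides those above, 122 with a probe set of their own and 87 measured. Past 1.5-fold, 3 of these lay on the higher side (3.45%) and 4 on the lower (4.6%), beside 5.85% and 5.52% of all measured genes, and their median log2 ratio was -0.024. These counts use the brightest probe set, and others can disagree. Of 49 genes of the lists that were not called and had 2 or more measured probe sets, 12 (24.5%) passed 1.5-fold at another, beside 18.2% of such genes on the whole array. The ligands were weak, since *Il2*, *Il4*, *Il7*, *Il9*, *Il21* and *Tslp*, the cytokine that shares the Il7r chain, lay under the median on both arrays. *Il15*, the measured cytokine of the list, had 54.2 with scramble siRNA and 51.6 with *Flcn* siRNA. At their brightest probe sets the 5 measured receptor chains lay below 0 without reaching 1.5-fold, from *Il4ra* (log2 ratio -0.05) to *Il21r* (-0.53), and among them was *Crlf2*, the Tslp receptor chain that pairs with Il7r, with 53.7 and 45.6. *Il15ra*, the chain that binds IL-15, had a log2 ratio of -0.16 there and 0.41 at its other probe set.

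Of the 5 other JAKs and STATs measured, 2 were lower by 1.5-fold or more at the brightest probe set. *Stat2*, a factor of interferon signalling, gave 69.9 with scramble siRNA and 42.9 with *Flcn* siRNA, a log2 ratio of -0.70, and -0.65 at its other probe set. *Jak2*, a kinase of many cytokine receptors, gave 154.5 and 92.5, a log2 ratio of -0.74, but -0.26 at its other probe set. *Tyk2* had a log2 ratio of -0.15, but -0.78 at its dimmer probe set. *Stat6*, the highest of this list, had a log2 ratio of 0.03.

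*Cish*, a Stat5 target gene that inhibits cytokine receptors, gave 11.0 with scramble siRNA and 23.2 with *Flcn* siRNA at its probe set, at least 1.81-fold higher from a signal under the median. By the brightest probe set it was the only gene past 1.5-fold among 15 measured JAK-STAT inhibitors, and the only such gene among 10 measured textbook Stat5 targets, a list that shares *Cish* with the first. Dimmer probe sets of the target *Bcl2l1* and of the inhibitors *Socs4*, *Ptpn2* and *Pias2* passed 1.5-fold, at 0.78, 0.69, 0.65 and 0.62. The lowest dimmer probe set of these lists, of *Socs6*, was at -0.579 and fell just short. By the brightest probe set the lists divided as follows. Of the inhibitors 8 lay above 0 and 7 below, with a median log2 ratio of 0.057. Of the targets 7 lay above 0 and 3 below, with a median of 0.17. Of all measured genes 51.7% lay above 0, and with 10 targets nothing is read from the difference. The targets ranged from *Pim2*, a survival kinase, at -0.34 to *Cish*, followed by *Myc*, a growth factor-induced transcription factor, at 0.28. The targets *Socs2* and *Il2ra* were too weak for a ratio, with every signal under its array's median. Of 8 measured transcription factors known to act on *Il7r*, 0 passed 1.5-fold at the brightest probe set, where they ran from *Ikzf1* at -0.26 to *Gabpb1* at 0.42, with *Foxo1* at -0.03 and *Spi1* at 0.09. The dimmer probe sets of *Foxo1*, an activator of *Il7r* in lymphocytes, disagreed, with log2 ratios of 0.44 and -0.93 (30.0 with scramble siRNA and 15.8 with *Flcn* siRNA). Those of *Runx1* ran from -0.65 to 1.08.

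On the Zap70 and Syk side, the ITAM chains of lymphocytes were weak. *Cd3d*, *Cd3g*, *Cd247*, *Cd79a* and *Cd79b* lay under the median on both arrays, and *Cd3e* had 13.7 with scramble siRNA and 2.0 with *Flcn* siRNA. The myeloid ITAM chain *Tyrobp* had 3812 and 3905, and *Fcer1g* had 2439 and 1997, log2 ratios of 0.03 and -0.29. Of 7 measured Src and Tec family kinases *Src* was higher, with 8.6 and 27.5 at a probe set that may also match other transcripts, at least 2.15-fold. Its other probe set was under the median on both arrays. *Fyn*, which acts upstream of Zap70, had a log2 ratio of -0.46, or -0.70 at its dimmer probe set.

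Of 15 measured adaptors and effectors of Zap70 and Syk, 0 passed 1.5-fold at the brightest probe set, 6 lay above 0 and 9 below, from *Sos1*, a Ras activator, at -0.49 to *Vav2* at 0.41. Dimmer probe sets of *Sos1* and of the adaptors *Grb2* and *Nck1* passed it, at -0.92, 0.96 and -0.62. *Lcp2*, the adaptor that Zap70 and Syk phosphorylate beside Lat, had 1074 with scramble siRNA and 1122 with *Flcn* siRNA. Of 11 measured inhibitors, 0 passed 1.5-fold at the brightest probe set, and they ran from the phosphatase *Ptpn22* at -0.39 to the adaptor *Dok1* at 0.27. A dimmer probe set of the inhibitor *Cbl* passed it, at 0.615. Among 10 measured myeloid receptors, *Fcgr1*, the high-affinity Fc gamma receptor, was lower, with 1033 and 380 at 1 probe set and 290 and 110 at the other, log2 ratios of -1.44 and -1.39. *Pirb* was lower too, with 235 and 141, although it inhibits signalling and does not act through Syk as the list's name says. *Clec4n*, a lectin that signals through Fcer1g, gave 28.6 and 46.3 at 1 probe set and 20.5 and 30.2 at the other, log2 ratios of 0.70 and 0.56.

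**Figure D4:**
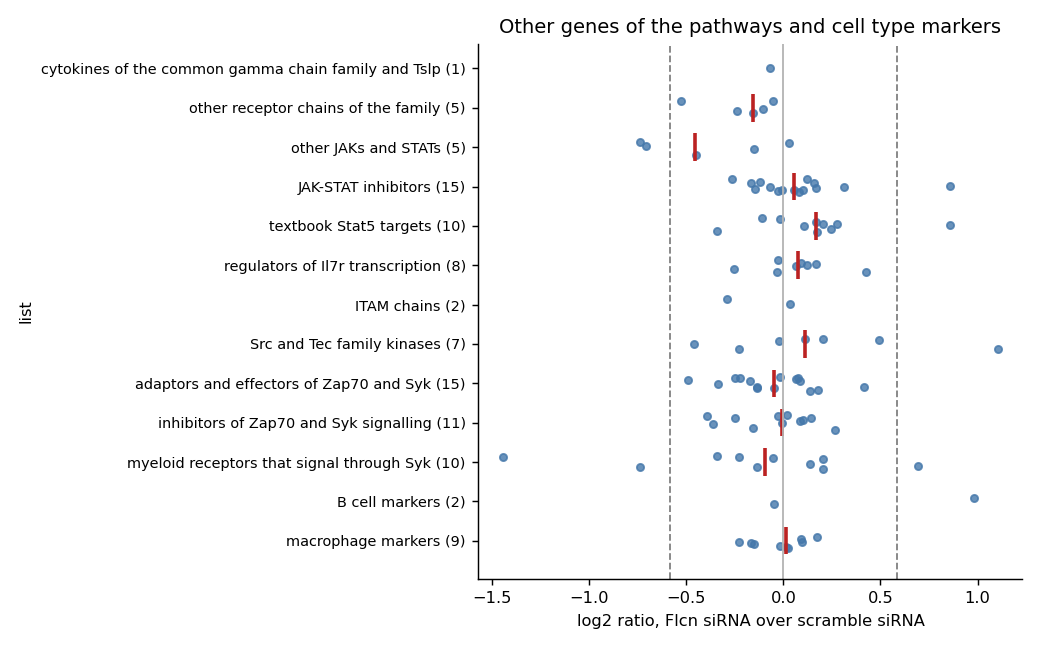
Log2 ratio of each measured gene of the pathway and marker lists, with the number measured in parentheses; dashed lines mark 1.5-fold and red bars are medians of lists with at least 5 measured genes. A point stands for 1 gene, with 1 array a condition; most points lie between the dashed lines, and the farthest are *Fcgr1* at -1.44 and *Src* at 1.10.

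Markers of lymphocytes were read on the same arrays, since *Il7r* and *Zap70* are best known from those cells. Of 15 T cell markers with a probe set 0 were measured and 14, among them *Cd4*, *Cd5*, *Cd28* and *Gata3*, lay under the median at every probe set on both arrays, and the remaining one was *Cd3e*. Their summed signal was 74 with scramble siRNA and 64 with *Flcn* siRNA. Of 7 markers of NK and innate lymphoid cells 0 were measured, with summed signals of 39 and 49. Of 12 B cell markers 2 were measured, *Blnk* with 431 and 416, which macrophages also express, and *Igll1*, the surrogate light chain of pre-B cells. *Igll1* gave 9.8 and 25.3, at least 1.98-fold higher, at a probe set that may also match other transcripts. At its other probe set both signals were under the median, with 1.3 and 2.1. The B cell markers summed to 491 with scramble siRNA and 495 with *Flcn* siRNA, most of it *Blnk*. Of 10 macrophage markers 9 were measured and 0 passed 1.5-fold, with a median log2 ratio of 0.016, and signals of 5375 and 5318 for *Csf1r* and 6344 and 6447 for *Lyz2*.

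The genes whose pair of log2 signals lay nearest to those of *Il7r* were *Atp6v0d2*, *Lmnb2*, *Phf19*, *Ankle1* and *Mgmt*, at distances of 0.42 to 0.52. *Atp6v0d2*, a proton pump subunit of osteoclasts, had 43.0 with scramble siRNA and 119.3 with *Flcn* siRNA, a log2 ratio of 1.47. It was also the nearest to *Zap70*, at a distance of 0.18, followed by *Ttll1*, *Ankle1*, *Nprl3* and *Fancd2*. These distances rest on 2 arrays and so describe a level and a ratio, not a pattern across conditions.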

How the data were processed

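The authors hybridised RNA of each condition to 1 array, processed it with GCOS, and deposited linear signal intensities per probe set, without detection calls. Over the 45101 probe sets the mean signal, trimmed by 2% on either side, was 100 on both arrays. The sources used here do not state the GCOS settings. Probe sets were named through the platform annotation, with symbols updated by Entrez ID to RefSeq on GRCm38.p6. Of the probe sets other than 64 controls, 34945 name 1 gene and were used. The probe set brightest by geometric mean stands for its gene, and calls are by size at 1.5-fold. The genes and lists were chosen with earlier results of these data known. Genes named from the lists are those past 1.5-fold and otherwise mainly the highest and lowest measured gene, and others were chosen after their values were seen. Nearest genes are by Euclidean distance of log2 signals, the 5 nearest with non-provisional names. Alternatives changed scaling, floor, filter and choice of probe sets. Functions were tested on simulated data, with changes put only into genes brighter than *Il7r* and *Zap70* were with scramble siRNA. Recovery of changes at weaker signals was not tested. Python 3.11.15, numpy 2.4.6, pandas 2.3.3 and matplotlib 3.10.9 were used.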

Additional observations from a re-analysis of the deposited data

How the results depend on the processing

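The log2 ratio of *Il7r* was 1.77 to 1.89 and that of *Zap70* 1.54 to 1.63 under every other scaling, floor, filter and choice of probe sets that measured them, apart from those named below. With the filter at the 75th percentile neither gene was measured, 0 of the described genes were called higher, and 213 genes were higher and 268 lower. Alternatives chosen after seeing the data gave *Zap70* 0.60 as the mean of all probe sets, weak ones included, which left 365 genes lower, and 0.0875, the ratio of the array medians, as its lowest probe set. That last choice left 1 described gene higher and 1 lower, and 330 genes higher and 953 lower. The number of described genes called lower, 0 as reported, became 2 after division of each array by the median (*Jak3* and *Lat*), and 1 with quantile normalization, with no floor and with the floor at the 25th percentile. Division by the median lowers every log2 ratio by 0.087, and the higher genes then made up 34.1% of all genes called instead of 51.5%. Probe sets ending in _at alone gave no value for *Jak3*, *Stat5a* and *Stat5b* and none above the filter for *Lat2*. No paired analysis was possible because there is 1 array per condition.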
